A study of Homo sapiens with 12 samples.

Results

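The genes described here are the axon guidance ligands and receptors: netrins, Slits, semaphorins and ephrins, and their receptors DCC, UNC5, Robo, plexin, neuropilin and Eph. They were chosen by their symbols, and 70 of the 31654 usable symbol rows of the expression table matched. The libraries came from 4 groups of human glioblastoma cells grown in serum-containing medium, with 3 libraries per group. U251MG and U87MG are parental lines with no agent named. U251TR and U87TR are sublines made temozolomide resistant by the submitters, who exposed the parents again and again to increasing amounts of this DNA-alkylating drug. The labels do not say whether the drug was present at harvest or whether the 3 libraries of a group are separate cultures, and p-values therefore cover no more than the scatter among libraries. Each parent gave a single resistant subline, so what came with resistance and what came with the derivation of that subline cannot be told apart.

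Guidance cues steer growing axons and migrating cells by attracting or repelling the leading edge, and the same molecules act in blood vessels and in invasive glioma cells. Netrins attract through DCC and repel through UNC5 receptors, while Slits repel through Robo receptors. Semaphorins signal through plexins, and most secreted class 3 semaphorins need a neuropilin as co-receptor. Ephrins are bound to the cell surface, A-ephrins by a lipid anchor and B-ephrins by a membrane-spanning stretch, and they bind Eph receptor tyrosine kinases on the neighbouring cell.

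Levels are in FPKM, fragments per kilobase of transcript scaled to the library's total, so genes can be compared per length. The table does not name its unit, and FPKM was inferred from the values. The libraries summed to between 696371 and 786642 FPKM and held 13135 to 14122 genes at 1 FPKM or more. The depth in reads is not known from this table. U251MG replicate 2 was the least like its group (rank correlation across genes 0.977 and 0.978, against 0.993 between replicates 1 and 3), and U87MG replicate 3 likewise (0.983 and 0.987, against 0.993). All 8 glioma markers looked up averaged 1 FPKM or more in U251MG and U251TR, whereas in both U87 lines 4 did. VIM (vimentin) and CD44 were among the 4 in all groups, and SOX2 and S100B were listed at 0 in U87MG. Between U251MG and U251TR the mean of GFAP went from 22.8 to 396 FPKM, of NES from 196 to 42.6, of S100B from 9.87 to 1.89 and of SOX2 from 219.8 to 113. VIM went from 1702 to 817, FABP7 from 214 to 148, CD44 from 396 to 476 and OLIG2 from 3.44 to 3.89. Between U87MG and U87TR the mean of NES went from 7.79 to 25.5 FPKM and of GFAP from 0.753 to 1.75. CD44 went from 1045 to 507, VIM from 4917 to 4051 and OLIG2 from 1.14 to 0.263. Of 6 endothelial markers in the table, CDH5 alone averaged over 1 FPKM, at 6.69 in U251MG and 11.2 in U251TR, and the summed level of the list ranged from 6.22 to 8.77 FPKM in U251MG and from 11.2 to 12.2 FPKM in U251TR. Of 6 mural and fibroblast markers, the summed level was 5.87 to 7.1 FPKM in U251MG, 25.4 to 27.4 in U251TR, 33.5 to 42.1 in U87MG and 82.0 to 94.5 in U87TR, and ACTA2 held most of it in both resistant lines. Neuronal markers summed to at most 13.9 FPKM in U251MG and 3.92 in U251TR, and to 22.3 in U87MG and 24.7 in U87TR, mostly SNAP25 in U87 and SYT1 in U251, oligodendrocyte markers to at most 6.48, 1.38, 0.64 and 0.3 FPKM, and the 3 leukocyte markers in the table to at most 0.71 FPKM in any library. The part of these markers in the changes below was not tested. U87TR carries library codes outside the run of numbers used for the remaining 9, and this cannot be told apart from its resistance.

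The stretch before the RefSeq start site is shown for 5 genes on which the results turn and for which RefSeq lists a single start. Among tested members, EPHB6 had the largest rise in U251TR and EPHA3 the largest fall, SLIT2 moved in opposite directions in the 2 resistant lines, PLXND1 rose in both, and DCC had the largest fall in U87TR. Each run is the 250 bases before the start on GRCh38.p14, 5′ to 3′ on the strand of the gene, and capitals mark GC boxes (GGGCGG or, for the other strand, CCGCCC, with overlapping matches counted).
EPHB6, chr7:142862506-142862755 (+ strand): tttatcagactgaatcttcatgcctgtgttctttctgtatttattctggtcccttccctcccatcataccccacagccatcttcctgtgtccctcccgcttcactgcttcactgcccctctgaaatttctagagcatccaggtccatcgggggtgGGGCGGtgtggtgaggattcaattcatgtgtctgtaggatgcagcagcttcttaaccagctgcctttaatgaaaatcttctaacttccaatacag
SLIT2, chr4:20251655-20251904 (+ strand): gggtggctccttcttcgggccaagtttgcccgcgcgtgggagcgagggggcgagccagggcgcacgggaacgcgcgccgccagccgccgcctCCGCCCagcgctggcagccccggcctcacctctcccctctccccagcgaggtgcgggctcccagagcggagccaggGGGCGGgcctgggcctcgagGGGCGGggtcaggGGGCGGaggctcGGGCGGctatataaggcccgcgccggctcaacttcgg
PLXND1, chr3:129606677-129606926 (- strand): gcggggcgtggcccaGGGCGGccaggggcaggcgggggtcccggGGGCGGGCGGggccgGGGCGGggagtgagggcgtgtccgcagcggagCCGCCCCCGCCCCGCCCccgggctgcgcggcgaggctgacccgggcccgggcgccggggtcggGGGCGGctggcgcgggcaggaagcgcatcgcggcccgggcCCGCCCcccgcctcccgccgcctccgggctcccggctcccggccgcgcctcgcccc
EPHA3, chr3:89107371-89107620 (+ strand): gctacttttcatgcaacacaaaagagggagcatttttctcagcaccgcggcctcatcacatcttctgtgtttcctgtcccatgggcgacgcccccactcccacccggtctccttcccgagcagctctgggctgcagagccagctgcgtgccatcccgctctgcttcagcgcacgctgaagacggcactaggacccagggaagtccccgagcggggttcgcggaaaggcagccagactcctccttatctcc
DCC, chr18:52339947-52340196 (+ strand): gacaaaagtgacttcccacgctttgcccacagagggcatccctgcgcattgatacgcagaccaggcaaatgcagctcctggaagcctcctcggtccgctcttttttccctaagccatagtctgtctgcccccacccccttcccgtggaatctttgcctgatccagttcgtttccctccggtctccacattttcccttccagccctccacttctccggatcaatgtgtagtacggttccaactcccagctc
The PLXND1 stretch held 41 CG dinucleotides and 9 GC boxes, and the SLIT2 stretch 30 and 5. EPHB6 had 3 CG dinucleotides and 1 GC box, EPHA3 15 and no GC box, and DCC 10 and no GC box. The median over the 35116 stretches of this length in the RefSeq table was 11 CG dinucleotides, and 42.6% of them held a GC box. As many CG dinucleotides as PLXND1 were found in 1.73% of the stretches and as many as EPHB6 in 77.1%. No TATAAA or TTTATA was found in any of the 5, against a share of 10.7% of all stretches with at least 1. Only these exact letters were searched, and variants such as the tatataag in the SLIT2 stretch were not counted. These are letters only, and the table holds no measurement at these sites. In all, 59 of the 70 genes had an entry in the RefSeq table, and 37 had a single start.

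Of the 70 genes, 54 reached 1 FPKM in at least 3 libraries and were tested. The other 16 were EFNA2, EPHA1, EPHA6, EPHA7, EPHA8, EPHA10, NTN3, NTN5, ROBO2, SEMA3D, SEMA3E, SEMA3G, SEMA4A, SEMA4G, SLIT1 and UNC5A, none of which exceeded 1.49 FPKM in any library. DCC, EPHB6 and PLXNC1 passed this filter through the libraries of 1 group alone, so a difference between groups is built into their being tested. EPHA5 and PLXNA4 reached 1 FPKM in parental libraries alone, so a fall with resistance is likewise built in. In U251 libraries alone EFNA1, EFNB3, EPHA3, EPHB3, NTN1, SEMA3F, SEMA5B, SEMA6A, SEMA6C, UNC5C and UNC5D reached 1 FPKM, and in U87 libraries alone EPHB1. A difference in level between U251 and U87 cells is built into their being tested. The number of the 70 genes that averaged 1 FPKM or more was 45 in U251MG, 48 in U251TR, 39 in U87MG and 35 in U87TR. The highest levels in U251MG were those of EPHA2 (178 FPKM), NRP2 (127 FPKM) and SEMA3A (86.4 FPKM). In U87MG they were those of NRP1 (195 FPKM), SEMA7A (166 FPKM) and NRP2 (66.1 FPKM). In U251TR the order was EPHA2 (197 FPKM), NRP2 (186 FPKM) and PLXND1 (116 FPKM), where the first pair did not separate, since EPHA2 ranged from 183.47 to 212.8 and NRP2 from 178.66 to 196.82. In U87TR NRP1 (172 FPKM) and SEMA7A (103 FPKM) stayed on top.

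**Figure D1:**
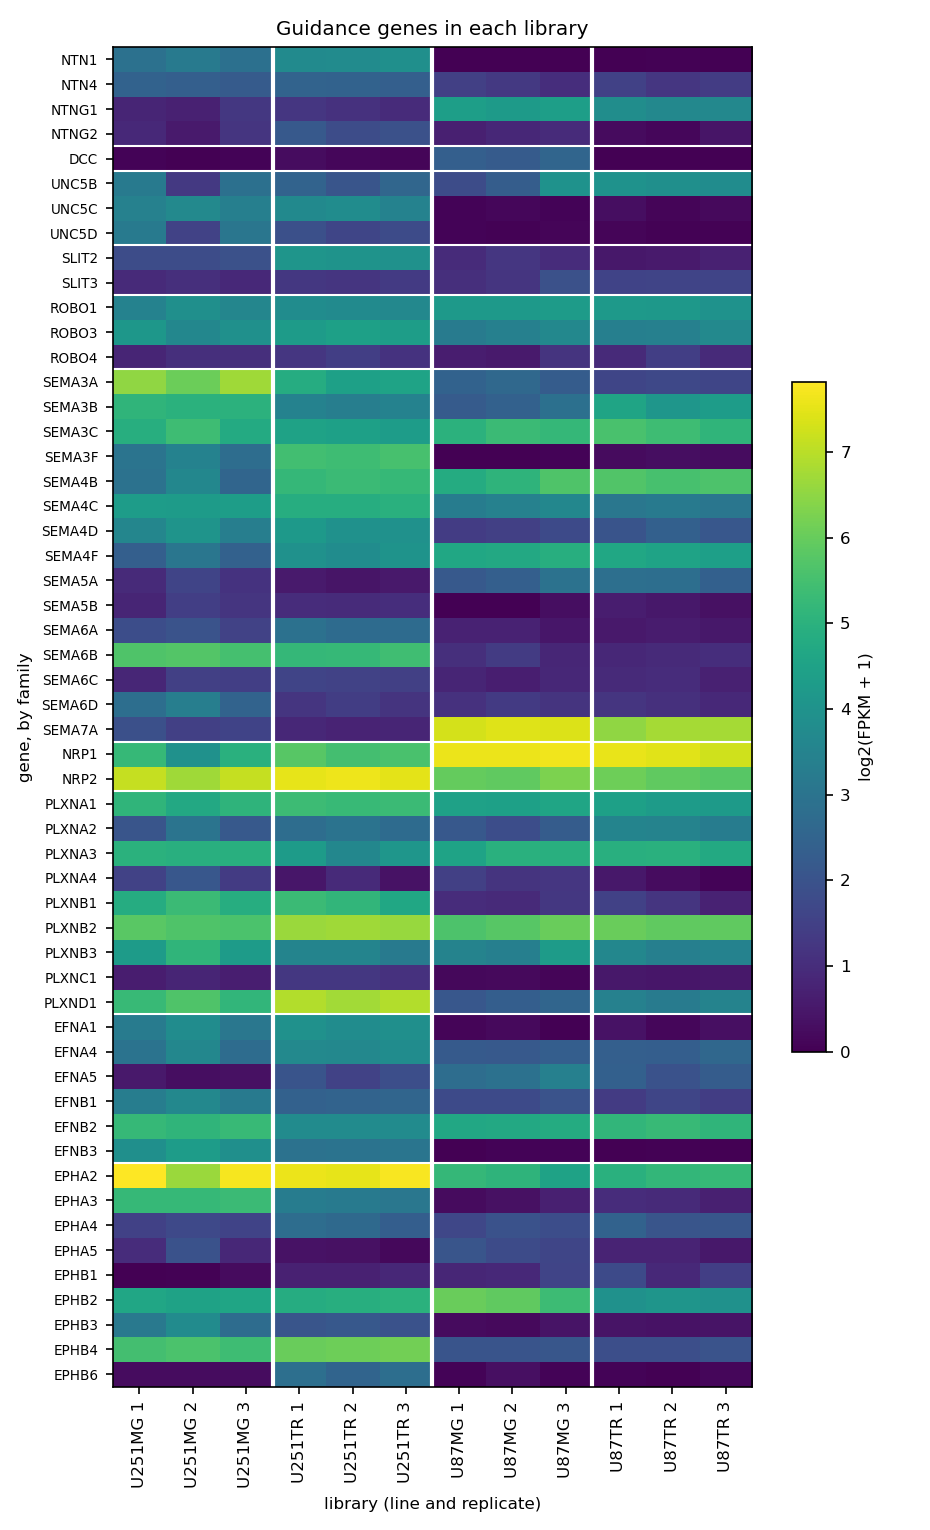
Level of the 54 tested guidance genes (rows, by family) in each of the 12 libraries (columns), as log2(FPKM + 1) from dark (low) to yellow (high); white lines separate the lines and the families. SEMA7A and NRP1 are bright in the 6 U87 libraries, and EPHA2, SEMA3A and PLXND1 in the 6 U251 libraries.

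The first comparison asked how U251TR differs from its parent U251MG. Of the 54 genes, 22 rose and 17 fell. The largest rises were those of the kinase-dead receptor gene EPHB6, the semaphorin genes SEMA3F and SEMA4B, and SLIT2, and the largest falls those of EPHA3, SEMA3A, SEMA6D and SEMA3B. EPHB6 passed the filter through U251TR alone, so its rise is a description. Over all 15449 genes tested, 53.2% were called in this comparison (33.6% higher and 19.6% lower), against 39 of the 54 guidance genes. With a change of at least 2-fold as well, 18 of the 54 were called, 9 in each direction, where the share of all genes was 13.6% (9.17% higher and 4.4% lower). The libraries of the groups did not overlap for 41 of the 54, against 58.9% of all genes. The median log2 fold change was 0.29 over the 54 genes and 0.10 over all genes tested, which quantile normalization moved to -0.01, and the median of its absolute size was 0.75 and 0.37. Calls were made with limma on log2(FPKM + 1) at an adjusted p under 0.05, and fold changes and standard errors (SE) are on that scale, which understates the change of weakly expressed genes.

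U87TR was set against U87MG in the same way, and 7 of the 54 genes rose and 11 fell. DCC and EPHB2 had the largest falls and SEMA3B, PLXNA2 and PLXND1 the largest rises. DCC passed the filter through U87MG alone, so its fall is a description. Of all genes tested, 27.8% were called (10.6% higher and 17.2% lower), against 18 of the 54. At least 2-fold were 7 of the 54 (3 higher and 4 lower), where the share of all genes was 5.19% (2.47% and 2.73%). The libraries did not overlap for 26 of the 54, against 46.6% of all genes. The median log2 fold change was 0.07 over the 54 and -0.05 over all genes. Without U87MG replicate 3 the count was again 18, but with 10 higher and 8 lower, and 15 of the 18 were among those called with all libraries, while NTNG2 and SEMA4C were lost and DCC was no longer tested. Without U251MG replicate 2 as well, 23 were called, 14 higher and 9 lower.

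Among the guidance genes, as among all genes, the direction of change could differ between the lines. Both resistant lines had 13 genes called, which is 33.3% of the 39 in U251TR and 72.2% of the 18 in U87TR. Over all genes these shares were 29.3% and 56.1%. PLXND1 and PLXNC1 rose in both lines, and EPHA5, PLXNA4, SEMA3A and SEMA7A fell in both, where EPHA5 and PLXNA4 passed the filter through parental libraries alone. The other 7 went opposite ways: SEMA3B, EPHA3 and EFNB2 fell in U251TR and rose in U87TR, and SLIT2, EFNA5, NTNG2 and SEMA4C rose in U251TR and fell in U87TR. Opposite calls made up 6.95% of all genes tested, and 1074 of the 2410 genes called in both lines. The difference between the changes of the 2 lines, tested as an interaction in the same fit, was called for 31 of the 54, with 12 higher and 19 lower in U87 than in U251, where 47.6% of all genes were called (15.4% and 32.1%). At least 2-fold were 8 and 11 of them, against 5.85% and 12.6% of all genes. In neither line were 10 of the 54 called, against 34.6% of all genes. Calls in both lines made up 15.6% of all genes, 4.6% both higher and 4.05% both lower.

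**Figure D2:**
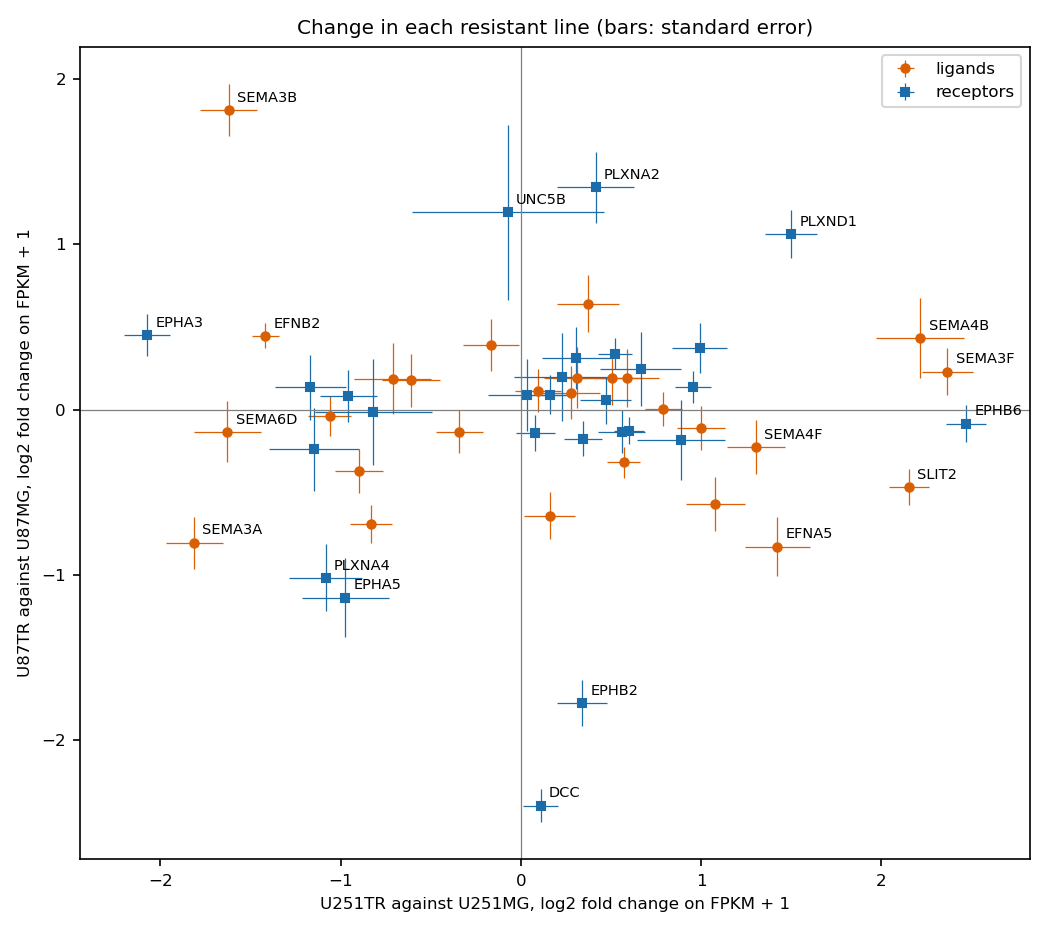
Change of each of the 54 tested genes in U251TR (horizontal axis) and in U87TR (vertical axis), as log2 fold change on FPKM + 1, with bars of 1 standard error; orange circles are ligands and blue squares receptors. SEMA3B lies at -1.62 in U251TR and 1.81 in U87TR, PLXND1 is high on both axes (1.50 and 1.06), and DCC and EPHB2 are low on the vertical axis alone.

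Of 4 tested netrin genes, NTN1 and NTNG2 rose in U251TR, and NTNG1 and NTNG2 fell in U87TR. NTN1, the secreted cue of the floor plate, was 6.54, 8.2 and 6.47 FPKM in the 3 U251MG libraries and 12.26, 12.69 and 13.75 in U251TR. All 3 resistant libraries were above all 3 parental ones, a rise (log2 fold change 0.79 with SE 0.10 and adjusted p = 5.22e-05). In both U87 lines NTN1 stayed at or under 0.03 FPKM. NTN4, a netrin of basement membranes, averaged 4.10 ± 0.361 FPKM in U251MG and 4.45 ± 0.249 FPKM in U251TR (SD, n = 3), which did not pass (adjusted p = 0.564). It was also present in U87MG and U87TR, at 1.42 and 1.61 FPKM on average.

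The membrane-anchored netrin-G genes, whose products bind their own ligands at synapses rather than DCC, differed in where they were called. NTNG1 stood at 20.06, 18.3 and 20.03 FPKM in U87MG and at 13.25, 11.58 and 11.56 in U87TR. It fell (log2 fold change -0.64 with SE 0.14 and adjusted p = 0.00560), with no overlap between the libraries. In U251MG and U251TR NTNG1 was at most 1.42 FPKM and did not pass (adjusted p = 0.365). NTNG2 was 0.88, 0.49 and 1.31 FPKM in U251MG and 3.56, 2.52 and 2.8 in U251TR, where it rose (log2 fold change 1.08 with SE 0.16 and adjusted p = 1.56e-04). In U87 it went from 0.6, 0.84 and 0.94 to 0.16, 0.11 and 0.35 FPKM (log2 fold change -0.57, adjusted p = 0.0216), a call that was lost in 5 of 22 other settings (adjusted p from 0.00573 to 0.0802 over all 22). The difference between the lines was -1.65 (adjusted p = 1.21e-04).

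Among netrin receptors, DCC reached 1 FPKM in the U87MG libraries alone. A difference is thus built into its being tested, and its values are a description. DCC, the attractive receptor named for its deletion in colorectal cancer, was 4.19, 3.79 and 4.92 FPKM in U87MG and 0.01, 0 and 0 in U87TR. The log2 fold change was -2.40, and 2 of the U87TR libraries listed the gene at 0. In U251MG and U251TR no library exceeded 0.2 FPKM, so the line difference of -2.51 compares a loss with values near 0. NEO1, the DCC paralogue that also binds repulsive guidance molecules, is not in the set and was looked up because of this relation. It rose in both lines. U251MG had 6.95 ± 0.251 FPKM and U251TR 24.4 ± 0.188 FPKM, U87MG had 6.03 ± 0.181 FPKM and U87TR 7.59 ± 0.172 FPKM (SD, n = 3), with log2 fold changes of 1.68 and 0.29 (adjusted p = 5.72e-09 and 0.0131).

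Of the UNC5 genes, which code for repulsive netrin receptors, UNC5B and UNC5D varied strongly between parental libraries. UNC5B was 8.07, 1.46 and 6.36 FPKM in U251MG, 4.61, 3.21 and 4.98 in U251TR, 2.54, 3.98 and 14.89 in U87MG and 14.87, 14 and 13.08 in U87TR. The libraries that stand apart, U251MG replicate 2 and U87MG replicate 3, held the lowest and the highest parental value. UNC5B passed in neither line (log2 fold change -0.07 with SE 0.53 in U251TR, and 1.19 with SE 0.53 in U87TR). Without U87MG replicate 3 it did in U87TR (log2 fold change 1.83, adjusted p = 0.00986). In U251TR the value ran from -0.65 to 0.291 over single libraries left out, and the lowest adjusted p over 23 other settings was 0.00930. The antisense transcript UNC5B-AS1 averaged at most 0.64 FPKM in any group. UNC5C averaged 10.3 ± 1.26 FPKM in U251MG and 11.7 ± 1.47 FPKM in U251TR (SD, n = 3), did not pass, and stayed at or under 0.21 FPKM in U87 cells. UNC5D was 8.1, 1.92 and 7.46 FPKM in U251MG and 2.79, 2.11 and 2.48 in U251TR. Its call (log2 fold change -0.82, adjusted p = 0.0497) was lost in 16 of 22 other settings, with values from -0.53 without U251MG replicate 1 to -1.35 without U251MG replicate 2 (adjusted p from 1.12e-06 to 0.199).

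SLIT2, which codes for a secreted repellent that is cut into active fragments, rose in U251TR and fell in U87TR. It was 2.55, 2.55 and 2.85 FPKM in U251MG and 15.98, 15.03 and 14.65 in U251TR, with all 3 resistant libraries more than 10 FPKM above the parents (log2 fold change 2.15 with SE 0.11 and adjusted p = 1.69e-08). In U87MG it was 0.95, 1.38 and 0.98 and in U87TR 0.43, 0.47 and 0.65 FPKM, lower in all 3 but at low levels. That fall (-0.47, adjusted p = 0.00745) was lost with a pseudocount of 5 (adjusted p = 0.056; 0.00234 to 0.056 over all 23 settings). The line difference was -2.62 (SE 0.15, adjusted p = 1.27e-07). SLIT3 averaged from 0.937 to 2.02 FPKM in the 4 groups and passed in neither line.

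Of the 3 Robo receptor genes tested, 1 was called in U251TR and none in U87TR. ROBO1, with the highest mean of them over the 12 libraries though below ROBO3 in both U251 lines, averaged 11.7 ± 1.95 FPKM, 12.3 ± 0.660 FPKM, 18.1 ± 0.445 FPKM and 16.4 ± 1.38 FPKM in U251MG, U251TR, U87MG and U87TR (SD, n = 3), and its log2 fold changes of 0.08 (SE 0.11) and -0.14 (SE 0.11) did not pass. ROBO3, which can act against Slit repulsion at the midline, was 16.46, 11.41 and 14.16 FPKM in U251MG and 18.7, 20.6 and 19.51 in U251TR. Its rise of 0.47 (adjusted p = 0.0144) was lost with median-of-ratios factors, with quantile normalization and without U251TR replicate 2 (adjusted p from 0.00323 to 0.0809 over 23 settings). ROBO4, a Robo of blood vessels, stayed under 1.8 FPKM in all 12 libraries.

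Of the class 3 semaphorins, the secreted members, 4 of 7 were tested, and in U251TR 3 fell and 1 rose. SEMA3A, the classical collapse-inducing repellent, was 90.31, 66.33 and 102.42 FPKM in U251MG and 27.85, 20.88 and 22.29 in U251TR (log2 fold change -1.81 with SE 0.16 and adjusted p = 1.77e-06). In U87 it was much lower and also fell, from 4.45, 5.27 and 3.84 to 2.11, 2.24 and 2.08 FPKM (log2 fold change -0.81 with SE 0.16 and adjusted p = 0.00269). The groups did not overlap in either line. SEMA3C, with the highest mean of the class over the 12 libraries though not in U251MG or U251TR, went from 32.1 ± 7.81 FPKM to 20.4 ± 1.32 FPKM (SD, n = 3) in U251TR (log2 fold change -0.61, adjusted p = 0.00670) and was 35.6 and 40.6 FPKM on average in U87MG and U87TR, which did not pass.

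SEMA3B and SEMA3F lie on the short arm of chromosome 3 and have been studied as growth-restraining genes lost in lung cancer. SEMA3B was 33.92, 30.71 and 31.59 FPKM in U251MG and 9.98, 9.17 and 10.13 in U251TR, while in U87 it was 3.74, 4.37 and 6.47 in the parent and 22.93, 16.28 and 18.93 in U87TR. It thus fell in one line (log2 fold change -1.62 with SE 0.16 and adjusted p = 4.39e-06) and rose in the other (log2 fold change 1.81 with SE 0.16 and adjusted p = 4.69e-06), and neither pair of groups overlapped. Its line difference of 3.43 (SE 0.22, adjusted p = 2.71e-07) was the largest among the 54. The antisense transcript SEMA3B-AS1 averaged at most 0.72 FPKM in any group, and how strands were counted is not stated. SEMA3F went from 7.03, 9.95 and 5.96 to 42.4, 40.58 and 45.32 FPKM in U251TR (log2 fold change 2.37 with SE 0.14 and adjusted p = 6.68e-08), and in U87 cells it stayed at or under 0.21 FPKM. The line difference for SEMA3F was -2.13 (adjusted p = 5.45e-06).

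**Figure D3:**
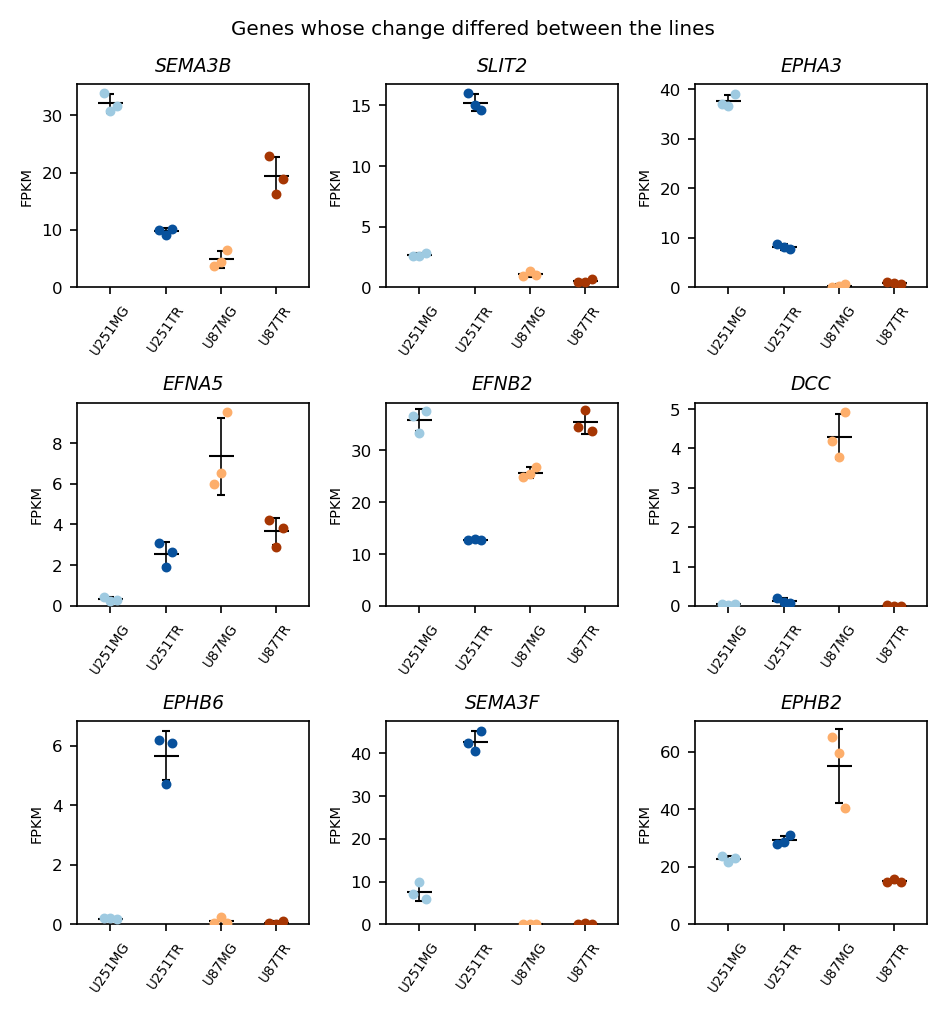
FPKM of 9 genes in the 3 libraries of each group (points), with the group mean (line) and standard deviation (bars); each panel has its own linear axis from 0. SEMA3B, EPHA3 and EFNB2 fall from U251MG to U251TR and rise from U87MG to U87TR, SLIT2 and EFNA5 do the reverse, and DCC, EPHB6, SEMA3F and EPHB2 change by at least 2-fold in 1 line alone when 1 FPKM is added to each value.

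Class 4 semaphorins are membrane-bound ligands of B plexins in the main, and 3 of the 4 tested rose in U251TR. SEMA4B went from 6.67, 11.38 and 4.88 FPKM in U251MG to 36.02, 39.35 and 36.41 in U251TR (log2 fold change 2.21 with SE 0.24 and adjusted p = 1.21e-05). In U87MG it was 27.31, 32.65 and 49.76 and in U87TR 50.71, 45.31 and 48.64, where replicate 3 of the parent reached into the range of the resistant libraries and the change did not pass (log2 fold change 0.43, adjusted p = 0.217). Over single libraries left out this value ran from 0.251 to 0.672, and the lowest adjusted p over 23 other settings was 0.00112. SEMA4F went from 5.31 ± 1.80 FPKM to 14.2 ± 1.22 FPKM (SD, n = 3) in U251TR (log2 fold change 1.30 with SE 0.16 and adjusted p = 3.35e-05). SEMA4C rose in U251TR, from 19.18, 18.52 and 19.64 to 28.12, 28.4 and 30.07 FPKM (log2 fold change 0.57 with SE 0.09 and adjusted p = 2.65e-04). In U87 it fell from 8.67, 9.88 and 11.28 to 7.66, 8.12 and 7.46 FPKM (log2 fold change -0.32, adjusted p = 0.0239), a call lost in 7 of 23 other settings, both centring ones among them (adjusted p from 0.00955 to 0.0769). The line difference for SEMA4C was -0.89 (adjusted p = 1.78e-04). SEMA4D, the plexin-B1 ligand, rose in U87TR from 1.64, 1.81 and 2.35 to 3.07, 4.31 and 3.36 FPKM (log2 fold change 0.64, adjusted p = 0.0164), but not without U87MG replicate 1, U87MG replicate 2 or U87TR replicate 2, nor with a pseudocount of 5 (adjusted p from 0.00152 to 0.0777).

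In the membrane semaphorins of classes 5 to 7, 4 of the 7 tested fell in U251TR besides the rise of SEMA6A, and the counts for U87TR were 1 lower and 6 not called. SEMA7A, a lipid-anchored semaphorin that also binds integrins, was 156.84, 172.78 and 168.07 FPKM in U87MG and 91.28, 109 and 107.58 in U87TR, a fall (log2 fold change -0.69 with SE 0.12 and adjusted p = 9.59e-04). In U251 it went from 2.78, 1.77 and 1.99 to 0.84, 0.7 and 0.77 FPKM (log2 fold change -0.83 with SE 0.12 and adjusted p = 8.20e-05). All 3 resistant libraries were below all 3 parental ones in both lines. SEMA6D, a ligand of plexin-A1, was 6.15, 9.25 and 4.6 FPKM in U251MG and 1.32, 1.65 and 1.26 in U251TR (log2 fold change -1.63 with SE 0.18 and adjusted p = 1.58e-05). SEMA6A rose in the same line, from 2.50 ± 0.564 FPKM to 5.95 ± 0.512 FPKM (SD, n = 3; log2 fold change 1.00). SEMA6B, the most abundant of its class in U251 but below SEMA6D in both U87 lines, went from 48.8 ± 3.82 FPKM to 38.3 ± 3.15 FPKM (SD, n = 3), and that call (log2 fold change -0.34, adjusted p = 0.0424) was lost in 11 of 23 other settings (adjusted p from 0.00496 to 0.170). SEMA5A fell in U251TR from 1.39 ± 0.598 FPKM to 0.430 ± 0.0529 FPKM (SD, n = 3; adjusted p = 0.0144), but not without U251MG replicate 2 or with a pseudocount of 5 (adjusted p from 0.00137 to 0.105 over 23 settings), and was 4.84 and 5.54 FPKM on average in U87MG and U87TR. SEMA5B and SEMA6C were at or under 2.01 FPKM in every library and passed in neither line.

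All 9 plexin genes, the semaphorin receptors, were tested. In U251TR 4 rose and 3 fell, and in U87TR 3 rose and 1 fell. PLXND1, the receptor of SEMA3E in vessels, was 37.24, 50.25 and 34.44 FPKM in U251MG and 120.39, 104.73 and 121.34 in U251TR (log2 fold change 1.50 with SE 0.14 and adjusted p = 4.04e-06). In U87 it was 3.35, 4.1 and 4.8 in the parent and 9.76, 8.6 and 10.33 in U87TR (log2 fold change 1.06 with SE 0.14 and adjusted p = 1.96e-04). It was higher in all 3 resistant libraries of both lines, though in U87TR it stayed below the level of U251MG. PLXNC1, the SEMA7A receptor, was low throughout and reached 1 FPKM in the U251TR libraries alone, so its rise there is a description. It went from 0.53, 0.77 and 0.57 to 1.4, 1.43 and 1.16 FPKM in U251TR (log2 fold change 0.52). In U87TR it went from 0.13, 0.15 and 0.07 to 0.43, 0.38 and 0.43 FPKM (log2 fold change 0.34, adjusted p = 0.0195). That call was lost in 3 of 19 other settings (adjusted p from 0.00138 to 0.0849).

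**Figure D4:**
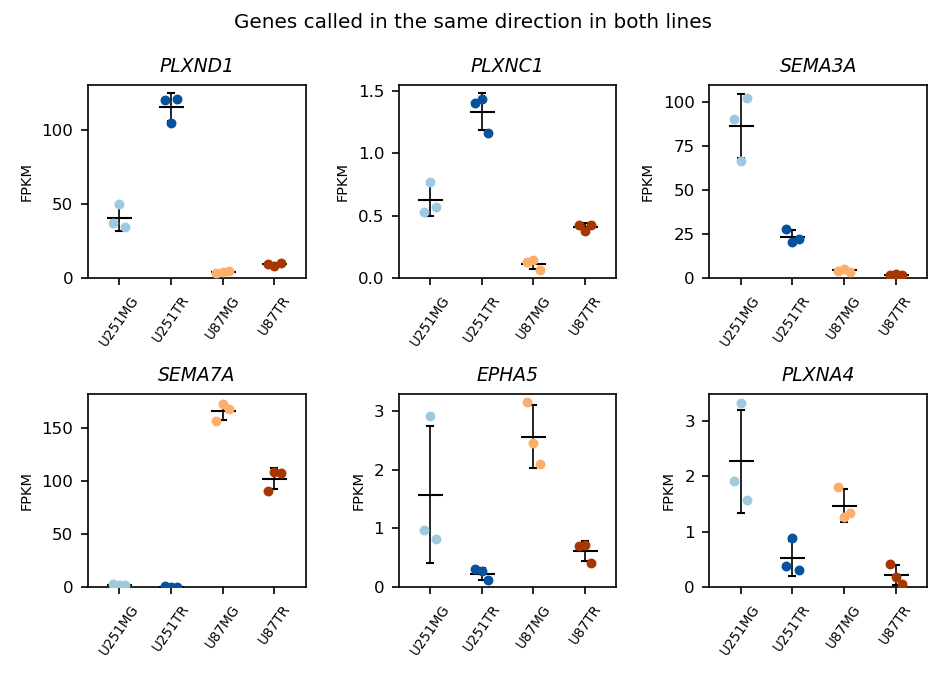
FPKM of the 6 genes called in the same direction in both lines, in the 3 libraries of each group (points), with the group mean (line) and standard deviation (bars); each panel has its own linear axis from 0. PLXND1 and PLXNC1 are higher in every resistant library than in its parent's libraries, and SEMA3A, SEMA7A, EPHA5 and PLXNA4 are lower.

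The A plexins, which pair with neuropilins for class 3 ligands, were divided. PLXNA2 rose in U87TR, from 3.49, 2.59 and 3.8 to 10.57, 10.38 and 8.66 FPKM (log2 fold change 1.35 with SE 0.21 and adjusted p = 6.27e-04). In U251 it was 3.2, 7.07 and 3.53 and 5.88, 6.96 and 5.64, where replicate 2 of the parent was the highest of the 6 libraries and the change did not pass (log2 fold change 0.41, but 0.71 with adjusted p = 0.00117 without that library). PLXNA4 reached 1 FPKM in parental libraries alone, so its fall in both lines is a description. It went from 1.91, 3.33 and 1.58 to 0.38, 0.89 and 0.31 FPKM in U251TR (log2 fold change -1.08 with SE 0.20). In U87TR it went from 1.81, 1.26 and 1.34 to 0.42, 0.19 and 0.06 FPKM (log2 fold change -1.02 with SE 0.20). PLXNA3 fell in U251TR from 30.0 ± 0.935 FPKM to 15.3 ± 3.73 FPKM (SD, n = 3; log2 fold change -0.96). PLXNA1, the A plexin with the highest mean over the 12 libraries though below PLXNA3 in both U87 lines, rose in U251TR from 30.8 ± 4.54 FPKM to 39.1 ± 1.57 FPKM (SD, n = 3; log2 fold change 0.34, adjusted p = 0.0162). That call was lost with median-of-ratios factors and without U251TR replicate 1 (adjusted p from 0.00466 to 0.152 over 23 settings), and the value was 0.22 without U251MG replicate 2.

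Among the B plexins, which bind class 4 semaphorins, PLXNB2 was the most abundant. PLXNB2 was 55.2, 50.21 and 47.86 FPKM in U251MG and 98.65, 103.27 and 97.83 in U251TR, a rise (log2 fold change 0.96 with SE 0.10 and adjusted p = 6.97e-06). In U87MG and U87TR it averaged 55.9 ± 7.97 FPKM and 61.2 ± 3.44 FPKM (SD, n = 3), which did not pass. PLXNB3 fell in U251TR, from 18.57, 33.57 and 18.54 to 10.59, 10.52 and 8.13 FPKM (log2 fold change -1.15 with SE 0.25 and adjusted p = 0.00213). PLXNB1 averaged 31.7 and 32.8 FPKM in U251MG and U251TR and 1.11 and 1.28 in U87MG and U87TR, and passed in neither line.

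Both neuropilin genes, whose products are also co-receptors of vascular endothelial growth factor, rose in U251TR. NRP1 was 36.48, 14.65 and 30.18 FPKM in U251MG, lowest in replicate 2, and 53.87, 43.71 and 46.35 in U251TR (log2 fold change 0.89 with SE 0.24 and adjusted p = 0.00880). Without U251MG replicate 2 the log2 fold change was 0.51 and still passed (adjusted p = 0.00264), whereas in a fit on the 6 U251 libraries alone the call was lost (adjusted p = 0.0505). NRP2 was 138.25, 104.11 and 138.19 FPKM in U251MG and 182.39, 196.82 and 178.66 in U251TR (log2 fold change 0.56 with SE 0.13 and adjusted p = 0.00298). In U87 neither passed: NRP1 averaged 195 ± 6.12 FPKM in U87MG and 172 ± 19.5 FPKM in U87TR, and NRP2 averaged 66.1 ± 9.09 FPKM and 60.0 ± 6.64 FPKM (SD, n = 3).

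All 3 B-ephrin genes fell in U251TR and the 3 tested A-ephrin genes rose there. EFNB2, the ligand of EPHB4 in arteries, was 36.54, 33.37 and 37.51 FPKM in U251MG and 12.73, 12.81 and 12.75 in U251TR, with little spread in either group (log2 fold change -1.42 with SE 0.08 and adjusted p = 2.51e-08). In U87 it rose from 24.78, 25.39 and 26.81 to 34.49, 37.84 and 33.8 FPKM (log2 fold change 0.45 with SE 0.08 and adjusted p = 0.00100), and the line difference was 1.86 (adjusted p = 1.04e-07). EFNB1 and EFNB3 went from 9.60 ± 1.77 FPKM and 15.6 ± 2.98 FPKM in U251MG to 4.63 ± 0.190 FPKM and 6.89 ± 0.245 FPKM in U251TR (SD, n = 3), with log2 fold changes of -0.90 and -1.06 (adjusted p = 1.29e-04 and 1.40e-05). EFNB3 stayed at or under 0.06 FPKM in U87 cells.

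Of the A-ephrins, EFNA5 changed most. EFNA5, known from the mapping of retinal axons, was 0.45, 0.22 and 0.27 FPKM in U251MG and 3.09, 1.89 and 2.65 in U251TR (log2 fold change 1.42 with SE 0.18 and adjusted p = 3.80e-05). In U87 it was higher in the parent and fell, from 6, 6.51 and 9.53 to 4.23, 2.91 and 3.84 FPKM (log2 fold change -0.83 with SE 0.18 and adjusted p = 0.00505). For EFNA5 the lines differed by -2.25 (adjusted p = 2.37e-05). EFNA4, the A-ephrin with the highest mean over the 12 libraries though below EFNA1 in U251 and below EFNA5 in U87MG, went from 6.89, 11.32 and 5.86 to 11.84, 11.67 and 13 FPKM in U251TR. That call (log2 fold change 0.59, adjusted p = 0.0138) was lost without U251MG replicate 1, without U251MG replicate 3 and in a fit on the 6 U251 libraries alone (adjusted p from 5.82e-05 to 0.0642 over 23 settings). EFNA1, a ligand of EPHA2, went from 9.69 ± 2.94 FPKM to 13.8 ± 0.756 FPKM (SD, n = 3; adjusted p = 0.0204), a call lost in 8 of 23 other settings (adjusted p from 0.000203 to 0.203).

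Of 9 tested Eph receptor genes, 4 rose and 3 fell in U251TR, and 1 rose and 2 fell in U87TR. EPHA2, a receptor much studied in glioblastoma and the Eph with the highest mean over the 12 libraries though below EPHB2 in U87MG, was 225.24, 99.58 and 207.97 FPKM in U251MG, where replicate 2 was far below the others, and 193.23, 183.47 and 212.8 in U251TR. It did not pass (log2 fold change 0.23, SE 0.27), and the sign turned without U251MG replicate 2 (-0.14). In U87MG and U87TR EPHA2 averaged 30.2 ± 7.49 FPKM and 34.1 ± 3.23 FPKM (SD, n = 3), also without a call. EPHA3, a receptor of mesenchymal glioma cells, was 37.09, 36.63 and 39.1 FPKM in U251MG and 8.77, 8.12 and 7.65 in U251TR (log2 fold change -2.07 with SE 0.13 and adjusted p = 9.17e-08). In U87 it went from 0.17, 0.28 and 0.61 to 0.99, 0.92 and 0.62 FPKM, under 1 FPKM in all 6 libraries (log2 fold change 0.45, adjusted p = 0.0209). That rise was lost in 5 of 23 alternatives (range of adjusted p 0.00211 to 0.149). The line difference was 2.53 (SE 0.18, adjusted p = 6.29e-07).

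EPHA5, a receptor of the nervous system, reached 1 FPKM in parental libraries alone, so its fall in both lines is a description. It went from 0.98, 2.91 and 0.82 to 0.31, 0.27 and 0.12 FPKM in U251TR (log2 fold change -0.97 with SE 0.24). In U87TR it went from 3.14, 2.45 and 2.09 to 0.7, 0.72 and 0.42 FPKM (log2 fold change -1.14 with SE 0.24). The U251 value was -0.62 without U251MG replicate 2, the highest library. EPHA4, which binds ephrins of both classes, rose in U251TR from 1.85, 2.32 and 1.98 to 5.88, 5.41 and 4.02 FPKM (log2 fold change 0.99 with SE 0.15 and adjusted p = 1.60e-04). In U87TR its libraries were all above those of U87MG but the change did not pass (log2 fold change 0.37 with SE 0.15 and adjusted p = 0.0878).

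EPHB6, whose product lacks kinase activity, reached 1 FPKM in the U251TR libraries alone, so its values are a description. They were 0.2, 0.2 and 0.19 FPKM in U251MG and 6.19, 4.7 and 6.1 in U251TR (log2 fold change 2.47). In U87 cells EPHB6 did not exceed 0.25 FPKM, and the line difference was -2.55. EPHB2, a receptor of B-ephrins, was 65.03, 59.54 and 40.37 FPKM in U87MG and 14.61, 15.84 and 14.67 in U87TR, a fall (log2 fold change -1.78 with SE 0.14 and adjusted p = 2.06e-06). In U251 it was 23.65, 21.76 and 23.03 and 27.88, 28.66 and 30.87 FPKM, higher in all 3 resistant libraries but not past the threshold (log2 fold change 0.34, adjusted p = 0.0594), and in 5 of 23 other settings it passed. The line difference for EPHB2 was -2.12 (adjusted p = 5.45e-06). EPHB4, the EFNB2 receptor of veins, rose in U251TR from 44.3 ± 3.10 FPKM to 67.5 ± 2.61 FPKM (SD, n = 3; log2 fold change 0.60), while EPHB3 fell from 7.9, 12.54 and 5.74 to 3.14, 3.43 and 2.91 FPKM (log2 fold change -1.17). EPHB1, at or under 2.37 FPKM throughout, went from 0.02, 0.03 and 0.16 to 0.63, 0.63 and 0.83 FPKM in U251TR (adjusted p = 0.0250), a call lost in 7 of 18 other settings (adjusted p from 0.00079 to 0.129).

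The parental lines U87MG and U251MG were also set against each other. This comparison shares its libraries with the resistance comparisons. Of the 54 genes, 12 were higher and 31 lower in U87MG, where 32.2% and 40.1% of all genes tested were (72.3% in either direction). A difference was built into the testing of those that passed the filter through 1 line alone, DCC, EPHB1 and EPHA3 among them. At least 2-fold were 31 of the 54, against 31.6% of all genes, and the libraries did not overlap for 40 of the 54, against 72.3%. Of 27 ligand genes, 7 were higher and 18 lower, and of 27 receptor genes 5 and 13. SEMA7A had the largest difference, with 2.18 ± 0.531 FPKM in U251MG and 166 ± 8.19 FPKM in U87MG (SD, n = 3; log2 fold change 5.73, adjusted p = 1.21e-12). NTNG1 was the next largest of those higher in U87MG (log2 fold change 3.42), before NRP1 (2.89).

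Genes lower in U87MG were led by EPHA3, at 37.6 ± 1.31 FPKM in U251MG and 0.353 ± 0.229 FPKM in U87MG (SD, n = 3; log2 fold change -4.85). SEMA6B (-4.56), EFNB3 (-3.98), SEMA3A (-3.97), PLXNB1 (-3.95) and EPHB4 (-3.45) followed, and none of these 6 overlapped between the lines. EPHA3 and EFNB3 passed the filter through U251 libraries alone, so their differences are a description. For SEMA6B, SEMA3A, PLXNB1 and EPHB4 the adjusted p-values were at or below 7.69e-09. The neuropilin gene highest in U87MG was NRP1 (190.39, 192.04 and 201.72 FPKM) and in U251MG it was NRP2 (138.25, 104.11 and 138.19 FPKM). Both parents had PLXNB2 at similar levels, 51.1 ± 3.75 FPKM and 55.9 ± 7.97 FPKM (SD, n = 3), and its difference did not pass.

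**Figure D5:**
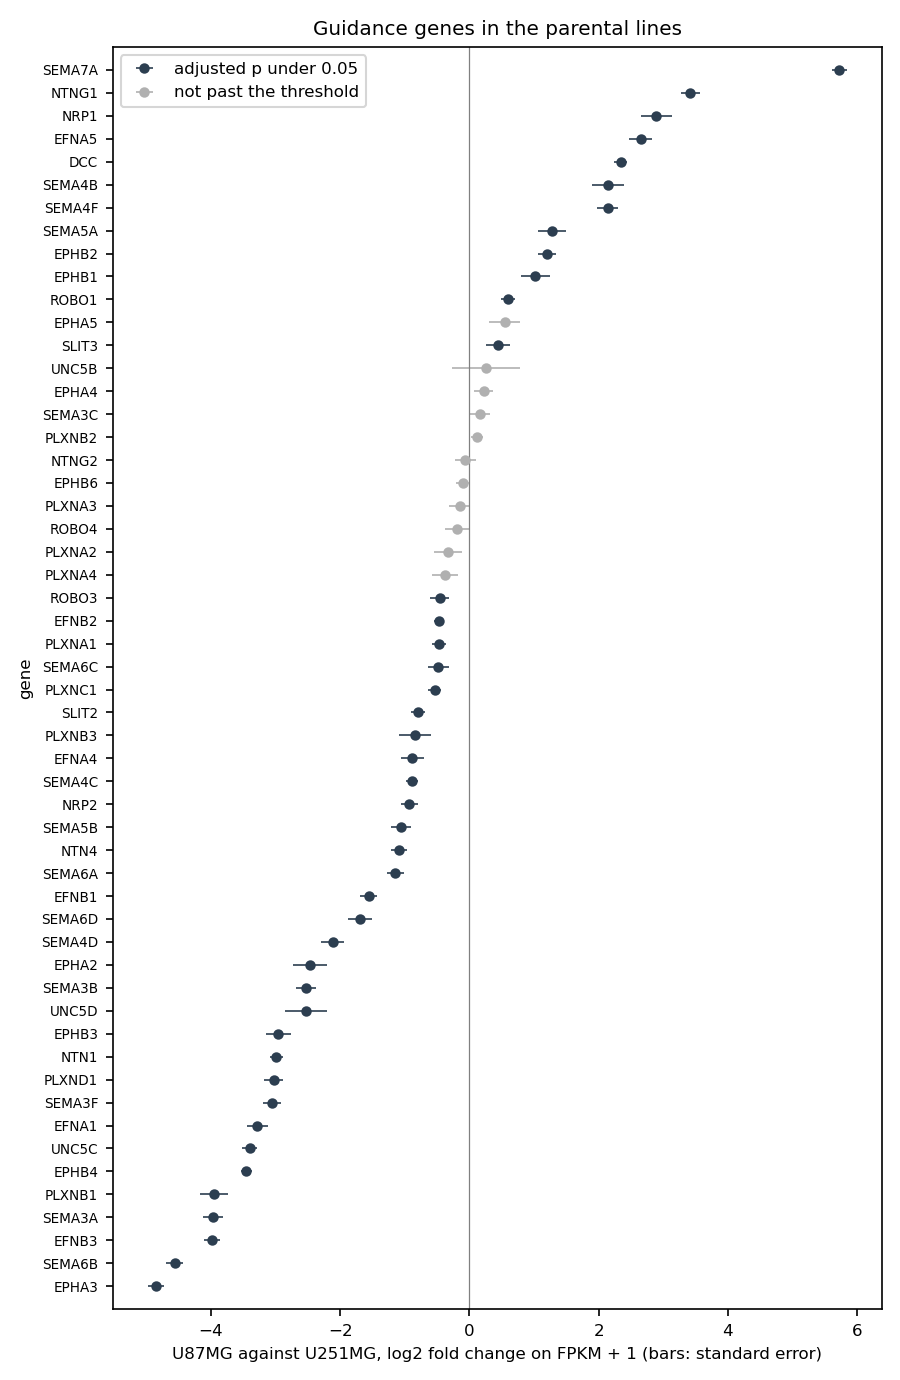
Difference between the parental lines for the 54 tested genes, as log2 fold change of U87MG against U251MG on FPKM + 1, with bars of 1 standard error; dark points passed at an adjusted p under 0.05 and grey points did not. SEMA7A lies at 5.73 and EPHA3 at -4.85, and 31 dark points lie left of 0 against 12 to the right.

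Beyond ligands and receptors, 64 genes of signalling downstream of guidance receptors were listed, of which 63 were tested. In U251TR 24 rose and 15 fell (median log2 fold change 0.12, against 0.10 over all genes, of which 33.6% rose and 19.6% fell). The split was 21 and 21 with median-of-ratios factors and 21 and 20 after quantile normalization. SPSB1, an adaptor of a ubiquitin ligase, and NGEF, the ephexin that acts downstream of EphA receptors, rose (log2 fold changes 1.83 and 1.80), and EVL, an actin regulator of the Ena/VASP family, fell (-1.57). In U87TR 8 rose and 14 fell (median -0.10 against -0.05 over all genes, of which 10.6% rose and 17.2% fell), and the split was 9 and 10 after rescaling to TPM and 9 and 9 after quantile normalization. The count of 22 was 14, 12 and 13 without U87TR replicates 1, 2 and 3. CHN2, which codes for a Rac-inactivating protein, reached 1 FPKM in the U87TR libraries alone and is described by its values, 0, 0.09 and 0 FPKM in U87MG and 2.4, 1.84 and 2.25 in U87TR. NGEF rose there too (1.06), while CFL1, the actin-severing cofilin, fell (-0.96).

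A list of 54 other guidance cues and co-receptors had 41 tested genes. In U251TR 16 rose and 13 fell (median 0.07 against 0.10 over all genes, with 33.6% and 19.6% of all genes called), and the split was 20 and 10 after rescaling to TPM. CXCL12, the chemokine that steers migrating neurons, and the adhesion gene CNTN1 reached 1 FPKM in the U251MG libraries alone, so a difference is built into their being tested and their values are a description: CXCL12 was 22.14, 10.69 and 21.16 FPKM in U251MG and 0.06, 0.14 and 0.08 in U251TR, and CNTN1 was 10.37, 8.79 and 12.72 and 0.28, 0.32 and 0.43 FPKM. The neurotrophin receptor gene NGFR fell by 3.15 on the log2 scale, and FLRT2, which codes for a repulsive ligand of UNC5D, rose (log2 fold change 1.70). In U87TR 3 rose and 9 fell (median -0.04 against -0.05, with 10.6% and 17.2% of all genes called). PTPRS, a receptor phosphatase for proteoglycans, fell from 10.1 ± 1.24 FPKM to 0.493 ± 0.265 FPKM (SD, n = 3; log2 fold change -2.91, adjusted p = 5.14e-08). RGMB, a repulsive ligand of neogenin, and KDR, a receptor of vascular endothelial growth factor, fell as well (-1.25 and -0.94), and ACKR3, the CXCL12 scavenger receptor gene, rose (1.95). FLRT2 fell in U87TR (-0.42, adjusted p = 0.00696). In U251TR KDR rose (1.03, adjusted p = 4.76e-04), PTPRS fell (-0.79), and RGMB and ACKR3 were not called.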

How the data were processed

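RNA from 12 libraries (3 each of U251MG, U251TR, U87MG and U87TR) was sequenced as 150 bp pairs. Groups were taken from the sample titles. The submitters' processing notes name STAR 2.5.2b, RSEM 1.2.31 and build hg19, while the design text gives hg38, so no coordinate is drawn from the values. The deposited table holds FPKM by gene symbol to 2 decimals; no header or label states that unit, which was inferred from the values. It holds no read counts. Of 31681 rows, 27 symbols turned into dates were left out.

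The 15449 genes that reached 1 FPKM in 3 libraries were fitted with limma 3.58.1 (R 4.3.3) as group means on log2(FPKM + 1) of all 12 libraries, with trend and robust moderation. P-values are two-sided and Benjamini-Hochberg adjusted over all genes tested, separately in each of 4 contrasts. The fit was tested on simulated data. Members and lists were chosen with earlier results of these data known. Named genes were the 10 largest called changes per resistance comparison, the 8 largest for the line difference and the parents (2 FPKM or more in the higher group), the most abundant gene of each family, and up to 4 genes per list and line; other genes named were chosen after their values were seen. Some genes that the rule names in the signalling list are not reported here. Some genes that the rule names in the signalling list are not reported here. Promoter stretches are RefSeq's. Alternatives were a pseudocount of 0.1 or 5, the filter left off or set to 5 FPKM, at least 2-fold calls, a replicate block, 3 scalings (median-of-ratios factors, TPM, quantile), separate fits, no trend and each library left out. Leaving out both parental libraries that stand apart was added after the data were seen.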

Additional observations from a re-analysis of the deposited data

Results flagged for a closer look

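The change with resistance differed between the U87 and U251 lines, by the interaction test in limma, for 31 of the 54 genes. Of all genes tested, 47.6% were called in this way. Listed here are 11 of the 31, with the U87 change minus the U251 change on the log2 scale. Not listed are, among others, SEMA4B (-1.78), SEMA4F (-1.53) and SEMA6D (1.49). The change was lower in U87 for SLIT2 (-2.62), EPHB6 (-2.55), DCC (-2.51), EFNA5 (-2.25), SEMA3F (-2.13), EPHB2 (-2.12), NTNG2 (-1.65) and SEMA4C (-0.89). It was higher in U87 for SEMA3B (3.43), EPHA3 (2.53) and EFNB2 (1.86). DCC and EPHB6 each passed the filter through 1 group alone, so their differences are a description. For the others the adjusted p ran from 1.04e-07 for EFNB2 to 1.78e-04 for SEMA4C. The median difference over all genes tested was -0.17, and it was -0.01 with median-of-ratios factors or 0.01 after quantile normalization. In 7 of the 11, SEMA3B, EPHA3, EFNB2, SLIT2, EFNA5, NTNG2 and SEMA4C, both lines had a call of their own, in opposite directions. The U87TR call was lost in 5 other settings for EPHA3, 5 for NTNG2, 7 for SEMA4C and 1 for SLIT2. EPHB6 and SEMA3F were near 0 in both U87 lines, and DCC was near 0 in both U251 lines.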

How the results depend on the processing

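The 4 counts of called guidance genes stayed within 1.5 times of the reported 39 (U251TR), 18 (U87TR), 31 (line difference) and 43 (parents) in every other setting run, except that a 2-fold minimum left 18, 7 and 19 for the first 3. That minimum also left 6 and 3 of the 63 signalling genes in U251TR and U87TR, and 15 and 3 of the 41 other cues. Of all genes tested it left 13.6% in U251TR and 5.19% in U87TR. Leaving out single libraries gave 32 to 39, 13 to 20, 26 to 36 and 40 to 43 guidance genes, and for signalling genes in U87TR 12 to 31 against 22. Without both parental libraries that stand apart, 35 signalling genes and 19 other cues were called in U87TR. With a replicate block the counts were 38, 18, 31 and 44. Equal replicate numbers did not pair libraries (correlations of deviations from -0.0599 to 0.130), so the block has no basis in the design. The sign turned in some named genes, none of them called there: EPHA2 in U251TR (-0.14 without U251MG replicate 2, or without both libraries; -0.141 to 0.443 over single libraries left out) and in U87TR (-0.013 without U87MG replicate 3, or without both; -0.013 to 0.337), SEMA6B in U87TR (0.007 without U87MG replicate 2; -0.255 to 0.007), NTNG1 in U251TR (-0.12 after quantile normalization), ROBO1 in U251TR (-0.047 with median-of-ratios factors, -0.08 after quantile normalization, -0.006 to 0.202 over libraries left out) and UNC5B in U251TR (0.032 after rescaling to TPM, -0.65 to 0.291 over libraries left out). NTN4 and PLXNB1 in U251TR, also not called, turned in 2 and 6 settings. The cause was not tested. Read counts are not known from this table, so low levels carry no counting interval.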

Other observations

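EPHA7, an ephrin-A receptor of the developing brain, fell short of the filter by 1 library. Each U251MG library lists it at 0, and its values were 1.49, 1.01 and 0.95 FPKM in U251TR, 0.4, 0.28 and 0.22 in U87MG and 0.85, 0.9 and 0.42 in U87TR. Every resistant library was above every library of its parent, with no test. UNC5A, another netrin receptor gene, was 0.1, 0.2 and 0.08 FPKM in U251MG and 0.56, 0.65 and 0.47 in U251TR, again without overlap and below the filter. SEMA3E, whose product is the ligand of plexin D1, did not exceed 0.99 FPKM in any library, and its highest value was in U87MG (0.99, 0.38 and 0.28 FPKM), while PLXND1 was highest in U251TR.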
